A study of Mus musculus with 18 samples.

Results

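Adrenal glands of castrated wild-type male mice were compared with those of wild-type males that kept their testes. The comparison rests on 6 arrays, 3 of castrated and 3 of intact males, chosen by their labels out of the 18 arrays of the study. All mice were C57BL/6N and were 2 months old according to the labels, and RNA came from the adrenal gland, so each array holds cortex and medulla together. The remaining 12 arrays hold wild-type females and 3 groups, castrated males, intact males and females, in which the gene of the receptor Ephb6 was knocked out, with n = 3 arrays in each group. The sources used here do not give the age at castration, the time from castration to sampling or whether intact males had sham surgery. Nor do they say whether the numbered arrays of a group stand for different animals, so each p-value reflects only the spread among these arrays, which may be technical. The construct of the knockout allele is not described in the labels.

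The adrenal cortex makes glucocorticoids under control of the pituitary hormone ACTH, and aldosterone in its outermost layer, the zona glomerulosa. The medulla is built of chromaffin cells, which make adrenaline and noradrenaline. Mice have a further cortical layer beside the medulla, the X-zone, which is known to disappear in males when androgens rise at puberty and to persist in females until the first pregnancy. Castration takes away the testes and with them the main source of androgens.

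The 6 wild-type male arrays had mean bead signals of 469 to 640, and 34.9% to 37.1% of probes were detected on each at a detection p under 0.01. Their mean correlation with the other arrays of their group was 0.971 to 0.986. Among the arrays used for comparison, castrated knockout array 1 stood apart, with 27.8% of probes detected and a mean bead signal of 244. Xist, the RNA of the inactive X chromosome, was not detected on any wild-type male array, where it read 4.29 to 4.50, against 9.70 to 10.11 in wild-type females. The Y-linked gene Eif2s3y read 7.36 to 8.56 on the 6 male arrays and 4.41 to 4.57 in females. Ephb6 read 5.73, 6.37 and 5.90 in intact and 6.68, 6.82 and 6.78 in castrated wild-type males. That difference, 0.77 ± 0.26 (SE), did not pass (adjusted p = 0.0698), although it passed with array weights (0.83), with only the groups compared fitted (0.77), in the authors' normalized values (0.32) and when background was left in (0.31).

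Levels throughout are log2 normalized intensities, so 1 unit is a 2-fold difference, and differences are castrated minus intact. Of 10375 genes tested, 1111 (10.7%) differed at an adjusted p under 0.05, with 478 (4.61%) higher and 633 (6.10%) lower in castrated males. The median difference was 0.84 among the higher and -0.84 among the lower genes. The tails were unequal: 48 genes rose and 14 fell by more than 4-fold, and 21 rose and 5 fell by more than 8-fold. The 3 castrated and 3 intact arrays did not overlap for 3301 genes (31.8%), and 2483 (23.9%) had an unadjusted p under 0.05. When arrays were scaled to a common median in place of quantile normalization, 407 genes passed, 31% of them higher against 43.0%, and the median over all genes moved from -0.03 to -0.16. The count was 542 without castrated array 1, 736 without castrated array 3, 701 without intact array 2 and 687 without intact array 3. It was 1463 without the dim castrated knockout array 1, which enters the fit through the shared spread. That array stayed in the normalization and the detection filter.

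The 3 X-zone genes tested all rose, and they included the 2 largest increases of all genes reported. Akr1c18, the enzyme that inactivates progesterone and a standard X-zone marker, read 4.97, 4.56 and 4.40 in intact males and 13.90, 13.30 and 13.61 in castrated males. No intact array detected it, and all 3 castrated arrays were bright. Its level was at least 273-fold higher in castrated males (adjusted p = 4.88e-13). Cyp2f2, a cytochrome P450 known from club cells of the lung, read 5.76, 6.09 and 6.12 in intact and 13.51, 13.40 and 13.60 in castrated males. This was a rise of 7.52 ± 0.19 (SE), or 183-fold (adjusted p = 3.5e-15). Pik3c2g, a class II phosphoinositide kinase also used as an X-zone marker, read 4.51, 4.41 and 4.47 in intact and 10.61, 9.24 and 10.15 in castrated males, at least 22.5-fold higher (adjusted p = 1.93e-07). Its other probes rose as well, by 4.97 and 3.03. In a bulk sample, more cells of a type and more RNA per cell cannot be told apart.

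**Figure D1:**
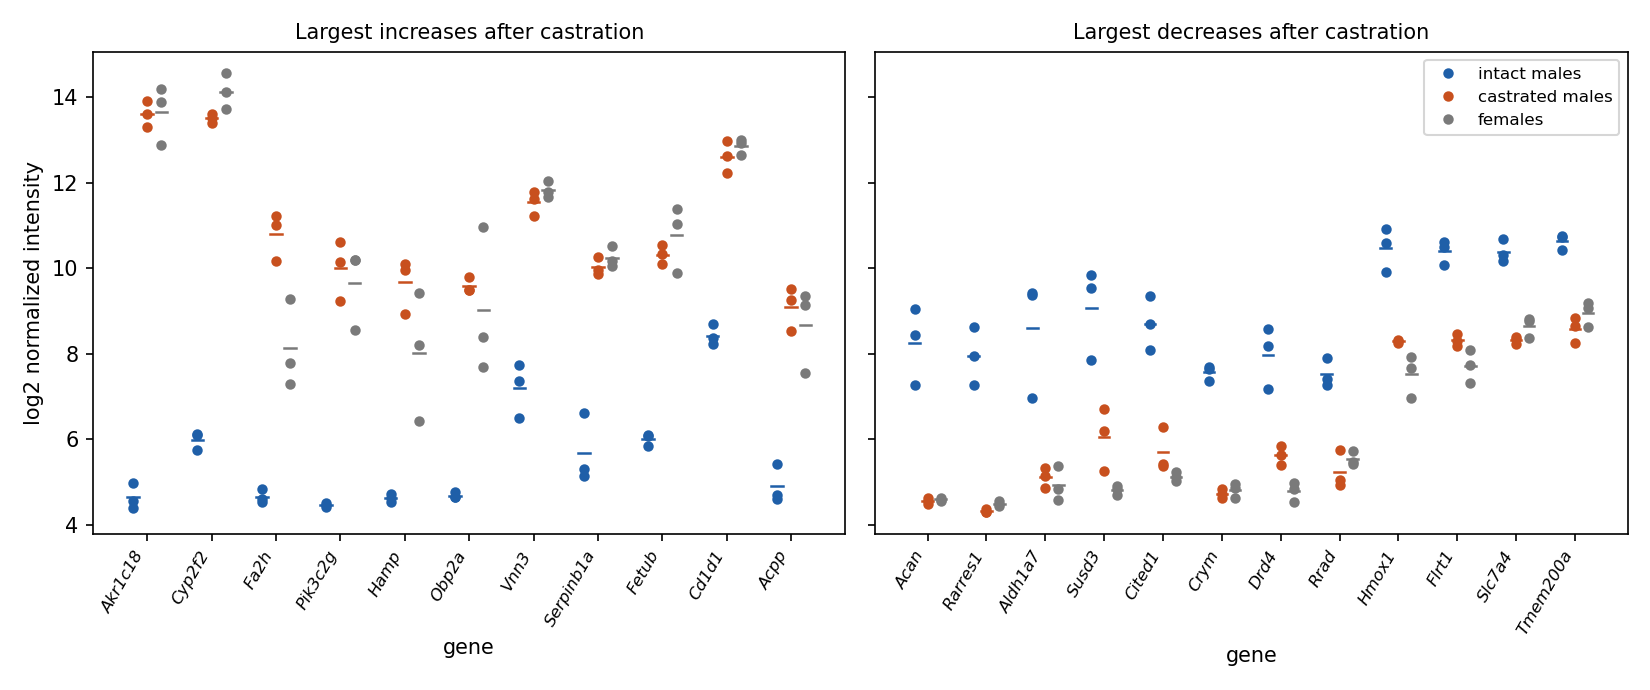
Log2 normalized intensity of the 11 largest increases (left) and 12 largest decreases (right) on each of 3 wild-type intact male, castrated male and female arrays; points are arrays and bars are group means. Castrated and intact arrays do not overlap for any of these genes, as the naming rule required, and Fa2h stands higher in castrated males than in females.

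The start regions of 4 of the genes that rose are shown because Akr1c18 and Cyp2f2 carry the X-zone increase and because Hamp and Hamp2, described next, rose together. Each window runs 5′ to 3′ from 250 bases before to 50 bases after the gene start, from RefSeq on GRCm38.p6. Capitals mark AGAACA, a motif shared by the androgen and glucocorticoid receptors, or AAGGTCA, a motif of the steroidogenic factor Nr5a1, on either strand. The Akr1c18 window (chr13:4150597-4150896, minus strand) holds neither. Cyp2f2 (chr7:27119705-27120004, plus strand) holds 1 match of each. The Hamp window (chr7:30943980-30944279, minus strand) and the Hamp2 window (chr7:30924132-30924431, minus strand) each hold 1 AGAACA just after the start.
Akr1c18: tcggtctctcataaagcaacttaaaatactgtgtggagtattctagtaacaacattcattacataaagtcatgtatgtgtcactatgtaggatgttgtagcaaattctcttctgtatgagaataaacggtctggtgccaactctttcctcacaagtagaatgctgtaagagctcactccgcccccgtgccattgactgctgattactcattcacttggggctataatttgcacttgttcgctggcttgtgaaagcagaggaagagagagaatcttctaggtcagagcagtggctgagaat
Cyp2f2: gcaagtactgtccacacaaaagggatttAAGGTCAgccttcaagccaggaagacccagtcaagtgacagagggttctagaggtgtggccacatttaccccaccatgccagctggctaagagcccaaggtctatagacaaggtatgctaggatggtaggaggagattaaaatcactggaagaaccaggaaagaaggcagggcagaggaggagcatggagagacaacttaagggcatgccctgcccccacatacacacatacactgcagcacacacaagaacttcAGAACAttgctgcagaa
Hamp: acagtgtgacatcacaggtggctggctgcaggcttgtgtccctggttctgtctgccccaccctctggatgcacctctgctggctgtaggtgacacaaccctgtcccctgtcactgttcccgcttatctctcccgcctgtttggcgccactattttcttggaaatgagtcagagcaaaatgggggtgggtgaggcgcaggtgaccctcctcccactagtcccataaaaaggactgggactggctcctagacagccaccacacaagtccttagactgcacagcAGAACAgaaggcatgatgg
Hamp2: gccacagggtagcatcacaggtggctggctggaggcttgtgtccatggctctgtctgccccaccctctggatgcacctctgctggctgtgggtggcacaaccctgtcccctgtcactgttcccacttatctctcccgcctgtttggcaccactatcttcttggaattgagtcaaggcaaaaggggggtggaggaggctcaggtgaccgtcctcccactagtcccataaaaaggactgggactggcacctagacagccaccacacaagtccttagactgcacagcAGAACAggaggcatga

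The Hamp and Hamp2 windows matched in 276 of 303 aligned columns (91.1%). Among the largest increases, 8 genes had a window to search and 3 of these (Cyp2f2, Hamp and Vnn3) held AGAACA, which 19% of all 32851 windows hold. Of 7 windows of the largest decreases 0 held it. AAGGTCA lay in 1 of the 8 and 1 of the 7, against 4.72% of all windows. The paired form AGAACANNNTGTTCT, which contains AGAACA on both strands, occurred in 3 windows of all and in 0 of these. These are letter matches in a short window and say nothing about binding.

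Hepcidin, the liver hormone that blocks iron export through ferroportin, was among the largest increases. Hamp read 4.63, 4.72 and 4.53 in intact and 9.96, 8.94 and 10.10 in castrated males. No intact array detected it, and it was at least 17.8-fold higher in castrated males (adjusted p = 4.41e-06). Its close paralogue Hamp2 read 5.08, 4.62 and 5.18 in intact and 7.75, 7.30 and 7.67 in castrated males, at least 4.19-fold higher (adjusted p = 1.88e-05). How far either probe also binds the other transcript was not tested. Of 17 iron genes tested, 2 rose and 3 fell, beside 4.61% and 6.10% of all genes. Their median was -0.11 beside -0.03 over all genes. The 3 that fell were Hmox1, the heme oxygenase that frees iron from heme, Slc40a1, which encodes ferroportin, and Tfrc, the transferrin receptor. Hmox1 read 10.59, 9.90 and 10.92 in intact and 8.32, 8.29 and 8.25 in castrated males, a fall of 2.19 on the log2 scale (SE 0.28, adjusted p = 4.59e-05). Slc40a1 fell by 1.37 (adjusted p = 0.019) and Tfrc by 1.15 (adjusted p = 0.0253). Slc40a1 did not pass without castrated array 1 or intact array 2 or 3, and Tfrc did not pass without castrated array 1 or 2 or intact array 1. Hmox1 passed under every setting tried. Of 10 liver markers 3 were tested, Apoa2, Ttr and Ahsg, which differed by 1.51, 1.29 and 0.76, and 0 passed. Their mean ran from 5.79 to 6.29 in intact and from 6.33 to 8.42 in castrated males. It was highest on castrated array 2, on which Hamp and Hamp2 were the lowest of their group. The part of liver tissue in the Hamp and Hamp2 signals was not tested.

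Lipid genes supplied further large increases. Fa2h, the hydroxylase that makes hydroxylated fatty acids for sphingolipids, read 4.54, 4.61 and 4.83 in intact and 11.21, 10.16 and 11 in castrated males. This was at least 38.9-fold higher (adjusted p = 4.5e-08). Dgat2, which catalyses the final step of triglyceride synthesis, read 9.43, 9.44 and 8.56 in intact and 13.51, 12.36 and 13.14 in castrated males. All castrated arrays lay above all intact arrays, with a rise of 3.86 ± 0.40 (SE, adjusted p = 4.48e-06). Of 40 genes of fatty acid metabolism and lipid droplets, 4 rose and 6 fell, beside 4.61% and 6.10% of all genes. The other 2 that rose were Acsl3 (0.64) and Scd2 (0.58), which activate and desaturate fatty acids. Acacb, the carboxylase whose product restrains mitochondrial fatty acid uptake, fell by 1.88, the thioesterase Acot1 by 1.78 and the fatty acid carrier Fabp3 by 1.77. The dimmer probe of Acot1 differed by -0.69 and did not pass. Fabp3 did not pass without castrated array 1 or 3 or intact array 2 or 3. Ech1 of fatty acid breakdown fell by 0.48, and Lpl and Acadvl also fell. The number passing in this list was 5 without castrated array 1, 6 without castrated array 3 or intact array 3, and 6 with median scaling.

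The remaining largest increases came from genes of varied function. Obp2a, an odorant-binding lipocalin, read 4.65, 4.76 and 4.65 in intact and 9.80, 9.49 and 9.49 in castrated males, at least 16.9-fold higher. Acpp, the prostatic acid phosphatase, was at least 12-fold higher, with 4.61 to 5.43 in intact and 8.52 to 9.51 in castrated males. Vnn3, of the vanin family of pantetheine-cleaving enzymes, rose by 4.34, and its other probe by 4.39. The protease inhibitors Serpinb1a and Fetub rose by 4.33 and 4.31, and Cd1d1, which presents lipid antigens to natural killer T cells, by 4.18 from an intact range of 8.22 to 8.69. The adjusted p of these genes lay between 3.78e-10 for Cd1d1 and 7.05e-05 for Obp2a.

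The largest decreases included 4 genes that no castrated array detected. Acan, the core protein of the cartilage proteoglycan aggrecan, read 7.27, 9.05 and 8.43 in intact and 4.50, 4.56 and 4.62 in castrated males, at least 6.22-fold lower (adjusted p = 1.99e-07). Aldh1a7, an aldehyde dehydrogenase, read 6.97, 9.38 and 9.42 in intact and 5.33, 5.14 and 4.87 in castrated males, at least 7.87-fold lower (adjusted p = 5.55e-05). Intact array 1 was the lowest of its group for both. Rarres1, named as a retinoic acid receptor responder, fell at least 5.05-fold (adjusted p = 4e-08). Crym, which binds thyroid hormone in the cytosol, read 7.70, 7.36 and 7.65 in intact and 4.83, 4.72 and 4.64 in castrated males, at least 3.87-fold lower (adjusted p = 2.5e-08). Cited1, a transcriptional coactivator, fell by 3.01, the dopamine receptor Drd4 by 2.35, the small GTPase Rrad by 2.28 and the amino acid transporter family member Slc7a4 by 2.07. The membrane proteins Flrt1 and Tmem200a fell by 2.08 and 2.06. Susd3 fell by 3.02 on the probe tested, while its dimmer probe differed by -0.72 and did not pass. All 23 of these largest changes passed in the same direction under each of the 18 other settings tried.

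Acan and Rarres1 belonged to lists in which other members were lower as well. Of 46 collagens, laminins and other matrix genes, 2 rose and 9 fell, with a median of -0.29. Those that fell included the protease inhibitors Timp1 (-1.39) and Timp2 (-1.32), the fibril-associated collagen Col16a1 (-1.48) and the basement membrane collagen Col4a1 (-0.84). Col5a3, a fibrillar collagen chain, rose by 2.03, from 6.29, 5.77 and 5.95 to 8.46, 7.40 and 8.23. In the list of 13 retinoid genes, Rarres1 and Aldh1a7 fell and the retinal reductase Rdh11 rose by 0.90 (adjusted p = 0.000362). Aldh1a1, an enzyme of retinoic acid synthesis and a relative of Aldh1a7, read 6.98, 10.09 and 9.61 in intact and 7.30, 7.70 and 7.73 in castrated males. Its groups overlapped through intact array 1, and its difference of -1.31 did not pass (adjusted p = 0.205). Without that array it was -2.27 and passed. The matrix count of 11 became 6 without castrated array 1, the array on which fibroblast markers were lowest.

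**Figure D2:**
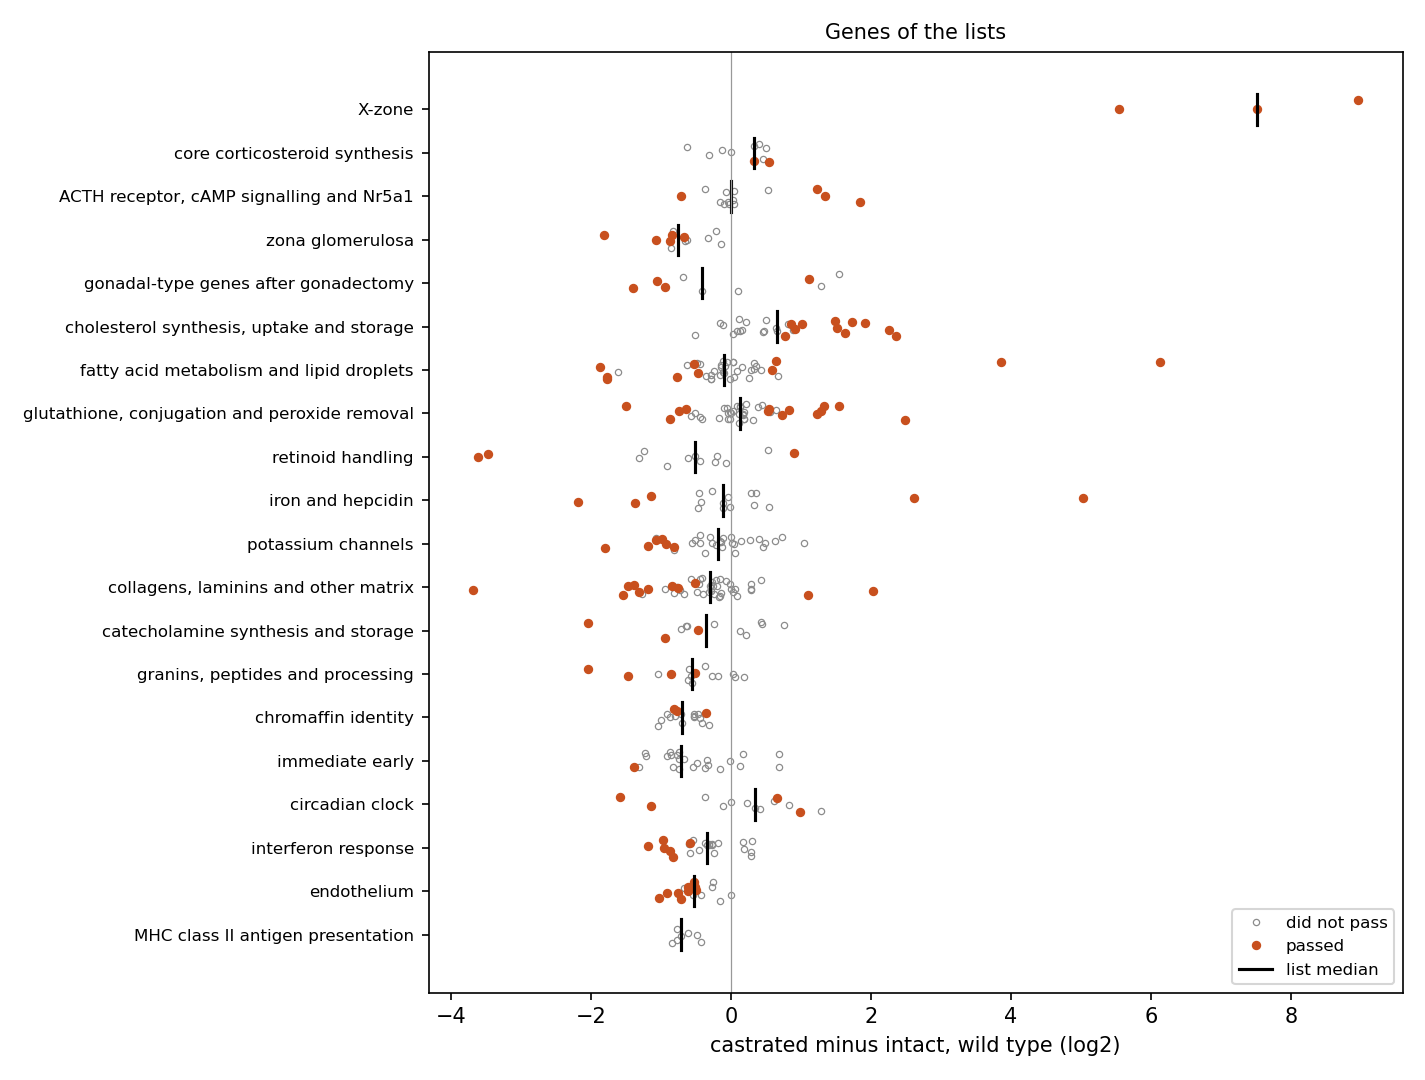
Castrated minus intact difference (log2, wild type) of each tested gene in 20 lists; filled points passed at an adjusted p under 0.05, open points did not, and the bar is the list median. The X-zone and cholesterol lists lie to the right, with medians of 7.52 and 0.65, and the zona glomerulosa, chromaffin and endothelium lists lie to the left, with medians of -0.76, -0.70 and -0.54.

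Enzymes of corticosteroid synthesis differed little. Of 10 tested, 2 rose and 0 fell, with a median of 0.33. Cyp21a1, the hydroxylase shared by glucocorticoid and aldosterone synthesis, read 14.35, 14.59 and 14.47 in intact and 15.15, 14.92 and 14.95 in castrated males, a rise of 0.54 ± 0.12 (SE, adjusted p = 0.00658). Cyp11b1, which completes corticosterone, rose by 0.32 ± 0.09 (adjusted p = 0.02). Star, which carries cholesterol into mitochondria, differed by 0.33 (adjusted p = 0.307) and Hsd3b1 by 0.45 (adjusted p = 0.116). Cyp11a1, the side-chain cleavage enzyme of the opening step, differed by -0.32 (adjusted p = 0.111), and passed with array weights (-0.29). Its dimmer probes gave -1.06, which passed, and -0.06, which did not, so its probes disagree. With median scaling 0 of the list passed, although the differences of Cyp21a1 (0.55) and Cyp11b1 (0.32) hardly moved, and Cyp21a1 alone passed without castrated array 1 or 3 or without intact array 2 or 3.

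Upstream of these enzymes, 3 genes of ACTH and cAMP signalling rose and 1 fell out of 14, with a median near 0. Nr5a1, the transcription factor known as steroidogenic factor, read 7.80, 8.08 and 7.85 in intact and 9.37, 9.11 and 9.28 in castrated males. Its groups lay more than 1 unit apart, a rise of 1.34 ± 0.21 (SE, adjusted p = 0.000412), with 1.30 on its other probe. Mrap, the accessory protein that brings the ACTH receptor to the cell surface, rose by 1.22 (adjusted p = 0.00103). The phosphodiesterase Pde8b, which breaks down cAMP, rose at least 2.07-fold (adjusted p = 3.59e-05). The adenylyl cyclase Adcy6 fell by 0.72. The receptor itself, Mc2r, differed by 0.53 and did not pass (adjusted p = 0.101), although without intact array 1 it was 0.75 and passed. With median scaling Nr5a1 differed by 1.15 and did not pass (adjusted p = 0.119), nor did Adcy6. Adcy6 also did not pass without castrated array 1 or 2 or intact array 2 or 3.

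Of 27 genes of cholesterol supply, 11 rose, 0 fell and 16 did not pass, and the median was 0.65. Fdps, which makes farnesyl pyrophosphate, read 11.68, 11.04 and 11.32 in intact and 13.87, 13.30 and 13.64 in castrated males, a rise of 2.26 ± 0.30 (SE, adjusted p = 6.35e-05). Hsd17b7, which acts on sterol intermediates, read 9.15, 8.43 and 8.64 in intact and 11.22, 10.76 and 11.28 in castrated males, a rise of 2.35 ± 0.35 (adjusted p = 0.000262). Castrated arrays were above intact arrays throughout for both. The demethylase Cyp51 rose by 1.92, Mvd of the mevalonate pathway by 1.51, its neighbour in that pathway Pmvk by 1.01, and Stard4, which carries cholesterol within the cell, by 1.72. Sqle, Nsdhl, Msmo1 and Insig1 rose by 0.77 to 1.62, and Idi1, not detected in intact males, rose at least 1.31-fold. In knockout males, where 7.45% of all genes rose and 10.1% fell (30.9% at an unadjusted p under 0.05 in either direction), 5 of the 27 rose and 1 fell, with a median of 0.31. In wild type the number that rose was 4 with median scaling, 6 without castrated array 1 and 7 without intact array 2, where the list median was 0.46.

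In the zona glomerulosa list 0 of 12 genes rose and 5 fell, with a median of -0.76. Shh, the signal that outer cortical cells send to the capsule, read 10.43, 11.15 and 10.48 in intact and 8.38, 9.42 and 8.83 in castrated males. The groups were separate by about 1 unit, a fall of 1.81 (SE 0.33, adjusted p = 0.00139), and its other probe fell by 1.73. The Wnt target Axin2 fell by 0.88 and the Wnt ligand Wnt4 by 0.84. Among ion channels that set aldosterone output, the calcium channel Cacna1h fell by 0.68 and the potassium channel Kcnk9 was at least 1.34-fold lower. Cyp11b2, aldosterone synthase, read 9.89, 9 and 8.71 in intact and 8.27, 9.02 and 8.42 in castrated males, and these overlapping groups did not differ by the test (adjusted p = 0.328). The angiotensin receptor Agtr1a differed by -0.86 (adjusted p = 0.06). With median scaling 2 of the list passed, as did 2 without castrated array 1 and 3 without intact array 3. In knockout males, where 7.45% of all genes rose and 10.1% fell, 1 of the 12 rose and 4 fell, with a median of -0.23. Over 32 potassium channel genes in wild type, 0 rose and 6 fell, led by Kcnk1, which fell by 1.80 (adjusted p = 0.000962). That count was 2 without castrated array 1 or intact array 2, and 3 without intact array 3.

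**Figure D3:**
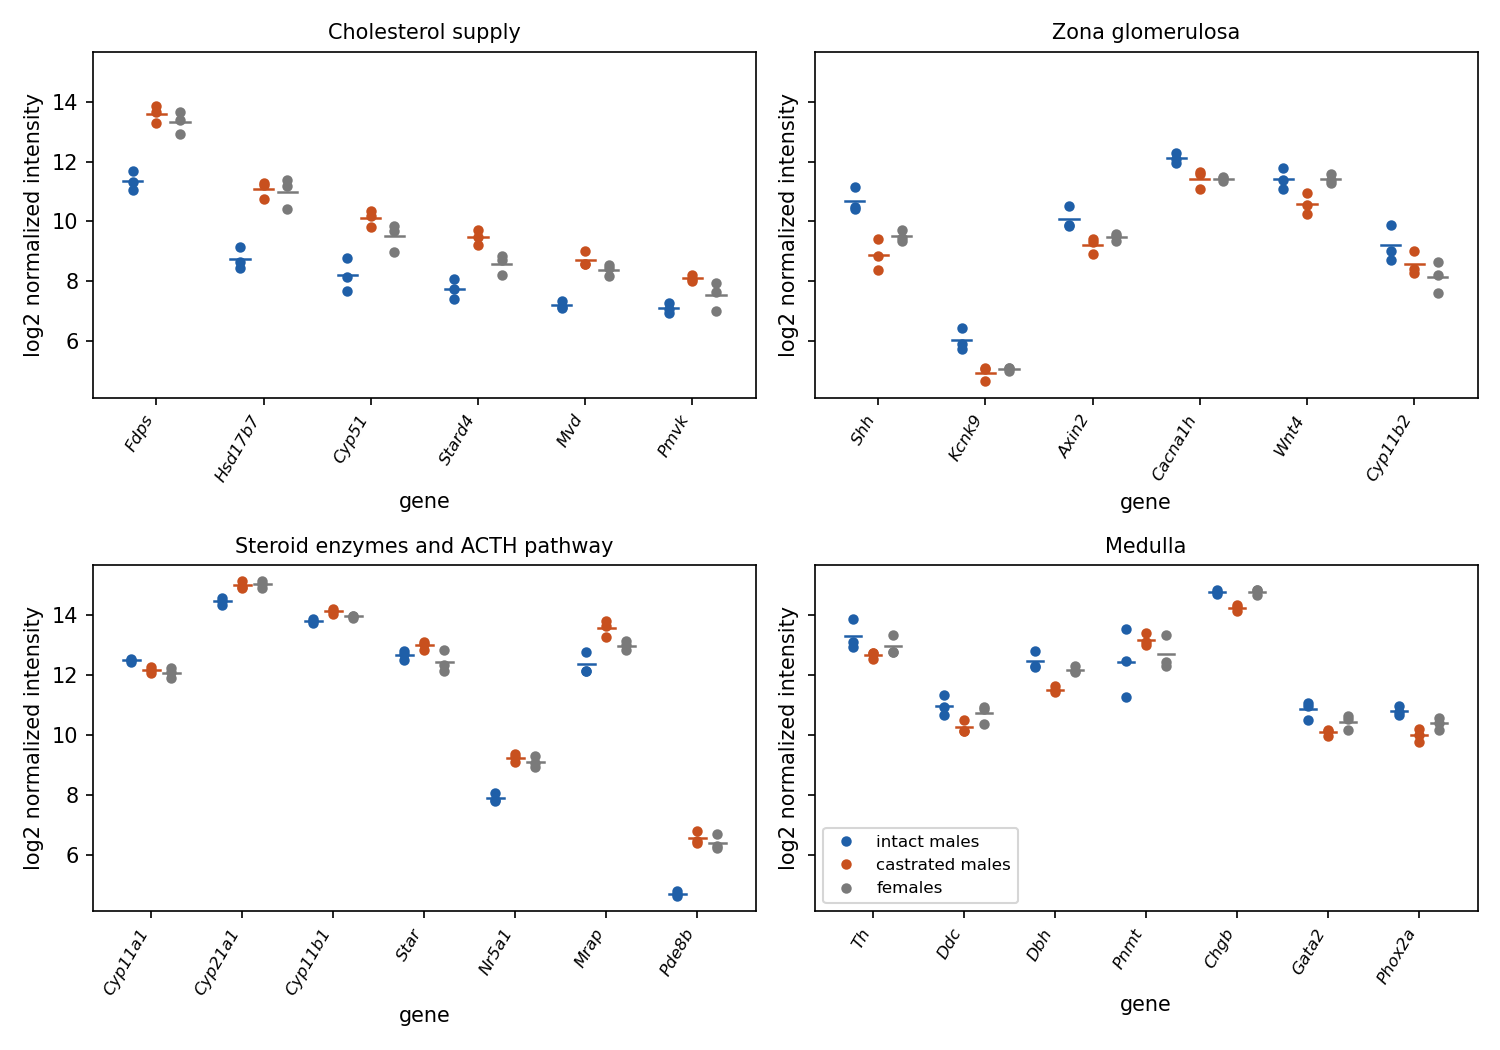
Log2 normalized intensity of genes of cholesterol supply, the zona glomerulosa, steroid enzymes with the ACTH pathway, and the medulla on each of 3 wild-type intact male, castrated male and female arrays; points are arrays and bars are group means. Castrated arrays lie above intact arrays for Fdps and Nr5a1 and below them for Shh and Dbh, while Pnmt and Cyp11b2 overlap.

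Of 43 detoxifying enzymes 9 rose and 4 fell, beside 4.61% and 6.10% of all genes, with a median of 0.12. Gstk1, a mitochondrial and peroxisomal glutathione transferase, read 12.62, 12.28 and 12.22 in intact and 13.85, 13.52 and 13.62 in castrated males, a rise of 1.29 ± 0.12 (SE, adjusted p = 1.48e-06). The microsomal transferase Mgst1 rose by 1.32 and Gsta3, a transferase that also isomerises steroids, by 2.48. The flavin monooxygenase Fmo1 rose by 1.54 and the mitochondrial superoxide dismutase Sod2 by 0.52. Ephx1, the microsomal epoxide hydrolase, went down from 13.28, 13.56 and 13.51 to 12.26, 11.88 and 11.71, a fall of 1.5 (adjusted p = 1.22e-05). With median scaling 5 rose and 2 fell.

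Genes known to appear in the adrenal of some gonadectomised mouse strains, where gonad-like cells form under the capsule, gave no common direction. Of 9 tested, 1 rose and 3 fell, beside 4.61% and 6.10% of all genes. Hsd17b1, an estrogen-forming enzyme, rose by 1.11 (adjusted p = 0.00831). Sox9, a gonadal transcription factor, fell by 1.06 and the proprotein convertase Pcsk6 by 1.40. Eppin, a protease inhibitor known from the epididymis, was at least 1.34-fold lower (adjusted p = 0.043), with 0 castrated arrays detecting it. It did not pass without castrated array 1 or 3 or without any 1 of the intact arrays, which left 2 genes of the list lower. Cyp17a1, the enzyme of androgen synthesis that adult mouse adrenals largely lack, read 6.87, 6.00 and 6.88 in intact and 6.23, 9.10 and 9.04 in castrated males. Castrated array 1 lay within the intact range while the other castrated arrays stood above it, and the difference of 1.54 did not pass (adjusted p = 0.142). Amhr2, the receptor of anti-Müllerian hormone, read 5.19, 5.39 and 4.59 in intact and 5.57, 7.55 and 5.92 in castrated males (adjusted p = 0.0961). Gata4, Esr1 and Hsd3b6 were not detected on any wild-type male array, and Prlr and Lhcgr were not analysed here.

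On the probes tested, medullary genes were lower or did not pass. Of 12 genes of catecholamine synthesis and storage, 0 rose and 3 fell, with a median of -0.36. In all 5 of the 12 lay above 0, against 4862 of 10375 over all genes. Among these, Pts differed by 0.42 and did not pass, but it passed on its dimmer probe (0.71) and as the mean of its probes (0.57). Dbh, which makes noradrenaline, read 12.81, 12.27 and 12.32 in intact and 11.64, 11.43 and 11.50 in castrated males, a fall of 0.94 (SE 0.22, adjusted p = 0.0094). Its groups did not overlap. The storage vesicle cytochrome Cyb561 fell by 0.47 and the noradrenaline transporter Slc6a2 by 2.05 (adjusted p = 0.0368). Slc6a2 did not pass when any 1 of the 6 arrays was left out. Th, the rate-limiting enzyme, read 13.87, 13.11 and 12.95 in intact and 12.73, 12.56 and 12.76 in castrated males and did not pass (-0.63, adjusted p = 0.135). Ddc differed by -0.72 (adjusted p = 0.0947) and passed with array weights (-0.88) and with only the groups compared fitted. Pnmt, which turns noradrenaline into adrenaline, read 13.54, 11.28 and 12.47 in intact and 13.12, 13.41 and 13.02 in castrated males, so the castrated arrays lay inside the intact range. With median scaling Slc6a2 alone of the catecholamine list passed, and 1 member passed without castrated array 1 or 2 or without intact array 2 or 3.

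Among 15 granins, peptides and processing enzymes, 0 rose and 4 fell, with a median of -0.56. Chgb, a granin of the secretory vesicle, fell by 0.52 (adjusted p = 0.00689) and Cpe, which trims neuropeptides, by 0.86 (adjusted p = 0.00179). Vgf fell by 2.05 with intact arrays at 10.46, 10.61 and 7.96, the last of these within the castrated range, whose lowest value was 7.10. Vgf did not pass with array weights (-1.02), with only the groups compared fitted, or without castrated array 2 or intact array 1 or 2. Cartpt fell by 1.47 (adjusted p = 0.0473), and did not pass without any 1 castrated array, without intact array 1 or 2, without background correction or in the authors' normalized values. The list count was 2 with median scaling and 2 without castrated array 2, intact array 1 or intact array 2. Chromaffin identity genes showed 0 of 17 above 0, against 4862 of 10375 over all genes, and a median of -0.70. The 3 that fell were Gata2 (-0.78), Phox2a (-0.81) and Dlk1 (-0.36). The list count was 0 with median scaling, without castrated array 2 or 3 and without intact array 3. It was 1 without castrated array 1 and 2 without intact array 2, where Phox2a and Dlk1 did not pass. Dlk1 did not pass when any 1 of the 6 arrays was left out. The differences under median scaling were no smaller, at -0.91 for Gata2, -0.93 for Phox2a and -0.39 for Dlk1. In knockout males, where 10.1% of all genes fell, 14 of the same 17 fell, with a median of -1.24. The test of the difference between the castration effects of the genotypes found 0 genes. In wild type the array means of the list ran from 9.40 to 9.78 in intact and from 8.83 to 9.07 in castrated males.

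Markers of other cells moved in part with these lists. Endothelial markers fell in 9 of 16 and rose in 0, with a median of -0.54 and array means of 9.89 to 10.08 in intact against 9.43 to 9.44 in castrated males. The vascular cadherin Cdh5 fell by 1.03 (adjusted p = 0.000495), Tie1 by 0.91 and Pecam1 by 0.76. Their number was 1 with median scaling, 5 without castrated array 1 or 3 and 4 without intact array 2. Genes of MHC class II antigen presentation had a median of -0.71 with 0 of 7 passing. Their array means overlapped, at 9.81 to 10.56 in intact and 8.83 to 10.10 in castrated males. In knockout males 7 of these 7 fell, beside 10.1% of all genes, with a median of -1.20. The test of the genotype difference found 0 genes. In wild type 2 of 14 macrophage markers rose (Lyz2 and Fcgr2b). In all 5 of the 14 lay above 0, against 4862 of 10375 over all genes, and their median was -0.09. The number that rose was 0 with median scaling, without castrated array 1 or 3 and without intact array 1 or 2, and 1 without castrated array 2. Of 13 fibroblast markers 1 fell and 2 lay above 0, with a median of -0.44, and their array means did not overlap, at 7.53 to 7.65 in intact and 6.68 to 7.52 in castrated males, with castrated array 1 the lowest. Of 6 red blood cell markers 0 passed and 0 lay above 0, with a median of -0.42 and overlapping array means. Pancreas enzymes were split, with Amy2a5 higher by 1.02 and Cela1 lower by 0.57. The part of these cells in the changes of other lists was not tested.

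Interferon-response genes fell in 6 of 23, and 0 rose, with a median of -0.35. Rsad2, an antiviral enzyme, read 10.67, 11.09 and 10.89 in intact and 9.83, 10.24 and 9.98 in castrated males, a fall of 0.87 (SE 0.16, adjusted p = 0.00156). Ifit2 fell by 1.19, Usp18 by 0.97, Isg15 by 0.96, Mx2 by 0.83 and Ifitm3 by 0.59. The dimmer probes of Ifit2 and Usp18 gave -0.34 and -0.06 and did not pass. The count was 1 with median scaling and 3 without castrated array 1, intact array 1 or intact array 2. In the circadian clock list 2 of 13 rose and 2 fell, beside 4.61% and 6.10% of all genes. The repressor Nr1d1 read 8.86, 8.59 and 9.20 in intact and 7.72, 7.02 and 7.14 in castrated males, a fall of 1.59 (adjusted p = 0.000774), and the clock output gene Dbp fell by 1.14, a call lost without castrated array 1, 2 or 3 or intact array 2 or 3. Rora, which opposes Nr1d1 at shared sites, rose by 0.99 and Bhlhe40 by 0.66. With median scaling Nr1d1 and Dbp passed and 0 of the list rose. The sources used here do not give the hour of sampling.

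Immediate early genes separated arrays within a group more than the groups. The mean of the 24 genes was 8.14, 11.44 and 9.38 on the 3 intact arrays and 9.10, 8.50 and 9.75 on the castrated arrays. Intact array 2 was the highest and intact array 1 the lowest of all. Atf3, a stress-induced transcription factor, read 4.72, 9.03 and 5.09 in intact and 5.14, 4.44 and 5.56 in castrated males, and without intact array 2 its difference turned from -1.23 to 0.14. Of the list Jun alone passed, with a fall of 1.39 (adjusted p = 0.000776), and the list median of -0.71 became 0.40 without intact array 2 and -1.60 without intact array 1, where 5 genes passed. Of 25 cell cycle genes, 0 passed, with a median of 0.13.

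The same contrast in Ephb6 knockout males shares no array with the wild-type one. Both use the same normalization and the same estimate of spread for each gene, so their calls are not independent. In the knockout 1818 genes (17.5%) passed, 773 higher (7.45%) and 1045 lower (10.1%). Both contrasts called 774 genes, 69.7% of the wild-type calls and 42.6% of the knockout calls, and all 774 had the same direction. Of the 1111 wild-type calls, 1099 (98.9%) had the same sign in the knockout, against 74.4% of all genes. Over all genes the Pearson correlation of both differences was 0.768 and the Spearman correlation 0.670, given as a description across genes, which are not independent replicates. Akr1c18 was at least 241-fold higher in castrated knockout males and Cyp2f2 rose by 7.59, while Acan fell at least 5.14-fold there and Rarres1 at least 3.19-fold. Without castrated knockout array 1, 1589 genes passed in the knockout and 743 of them were wild-type calls. With median scaling 1355 passed in the knockout, 9.08% of them higher against 42.5%, and the median over all genes was -0.41.

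**Figure D4:**
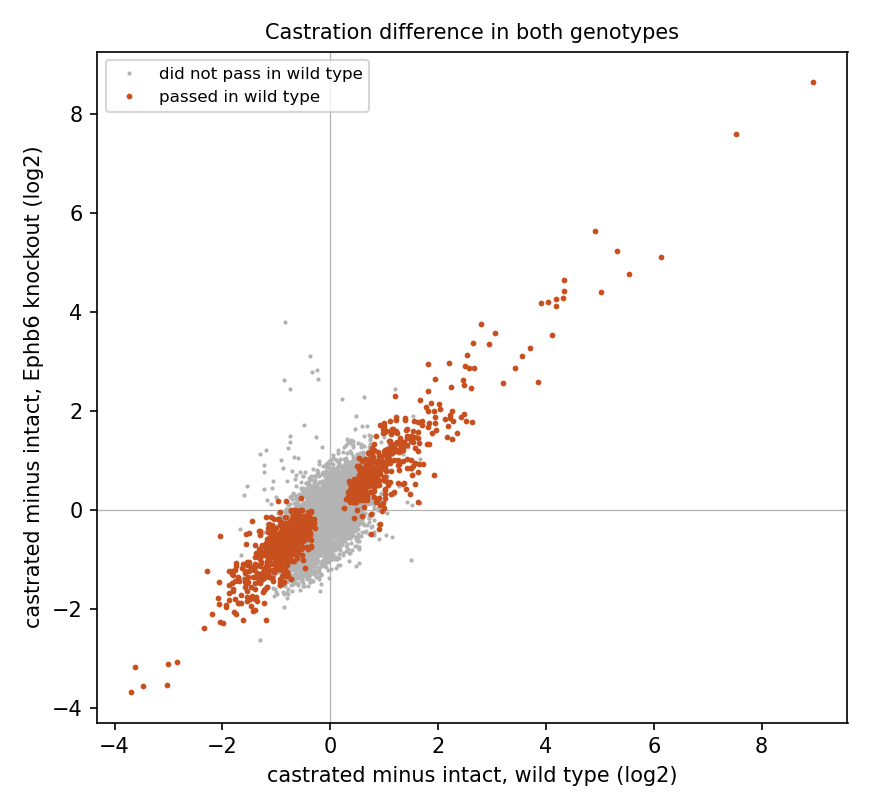
Castrated minus intact difference (log2) of 10375 genes in wild type (horizontal) and Ephb6 knockout males (vertical), with the 1111 genes that passed in wild type in colour. Of these, 1099 have the same sign in both genotypes.

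The test of the difference between the castration effects of the genotypes found 0 genes by limma, with 417 (4.02%) at an unadjusted p under 0.05, and 0 under every other setting tried. The median SE of this difference was 0.291 per gene. The smallest p-values belonged to the tight-junction gene Cldn7, with a difference of 1.74 ± 0.37 (SE), and to Npr1, Fcgr2b, Uaca, Klrd1 and Slc4a1, each with an adjusted p of 0.966. Ephb6 itself read 4.89 to 5.86 on the 6 male knockout arrays, which overlaps the lowest wild-type value, and the sources used here do not place the probe relative to the deleted part. It was detected on 2 intact and 0 castrated knockout arrays.

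Castrated males were also set against wild-type females, a contrast that uses the same castrated arrays. In it 34 genes (0.328%) passed, 14 higher (0.135%) and 20 lower (0.193%) in castrated males, with 9.32% at an unadjusted p under 0.05. Of the 1111 genes that differed between castrated and intact males, 15 were among them. Akr1c18 read 13.88, 14.19 and 12.87 in females, a difference of -0.05 (adjusted p = 0.994), and Cyp2f2 read 14.12, 14.55 and 13.71 (-0.62, adjusted p = 0.212). The 34 included the sex-linked Xist, at least 20.5-fold lower in castrated males, and Eif2s3y, at least 6.59-fold higher. Fa2h read 9.29, 7.30 and 7.79 in females, below all castrated arrays, a difference of 2.67 (adjusted p = 0.0134). Hamp2 was not detected in females, at 5.10, 5.49 and 5.17, and was at least 4.13-fold higher in castrated males (adjusted p = 0.00142), while Hamp read 8.20, 9.41 and 6.42 in females and did not pass (1.66, adjusted p = 0.242). Cyp17a1 was at least 6.04-fold higher than in females, in which it read 4.56 to 5.06. Its castrated arrays were at 6.23, 9.10 and 9.04, so castrated arrays 2 and 3 carry this bound. Its intact male arrays, at 6.00 to 6.88, also lay above the female ones. Agt, which encodes angiotensinogen, was at least 2.5-fold higher in castrated males than in females. Agt also rose against intact males, where it was not detected, by at least 2.54-fold (adjusted p = 0.0085).

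Some of the genes lowered in castrated males were lower than in females too. Ephx1 was 1.12 below females (adjusted p = 0.0057), whose arrays at 12.88 to 13.38 lay near those of intact males. Nr1d1 was 1.73 below them (adjusted p = 0.00694), Rsad2 1.01 below and Usp18 0.94 below. Apof, an apolipoprotein, and the kinase gene Sbk1 took middle places, with Apof at 5.99, 6.51 and 6.57 in intact males, 7.88, 7.76 and 7.56 in castrated males and 8.88, 9.15 and 9.10 in females. Both differences of each gene passed. The number of genes that passed against females was 334 with array weights, 153 with only the groups compared fitted, 10 with median scaling and 12, 18 and 6 without castrated array 1, 2 and 3. It was 7 and 10 without female array 2 and 3, and 69 without castrated knockout array 1. That array was left out of the fit but not of the normalization.

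**Figure D5:**
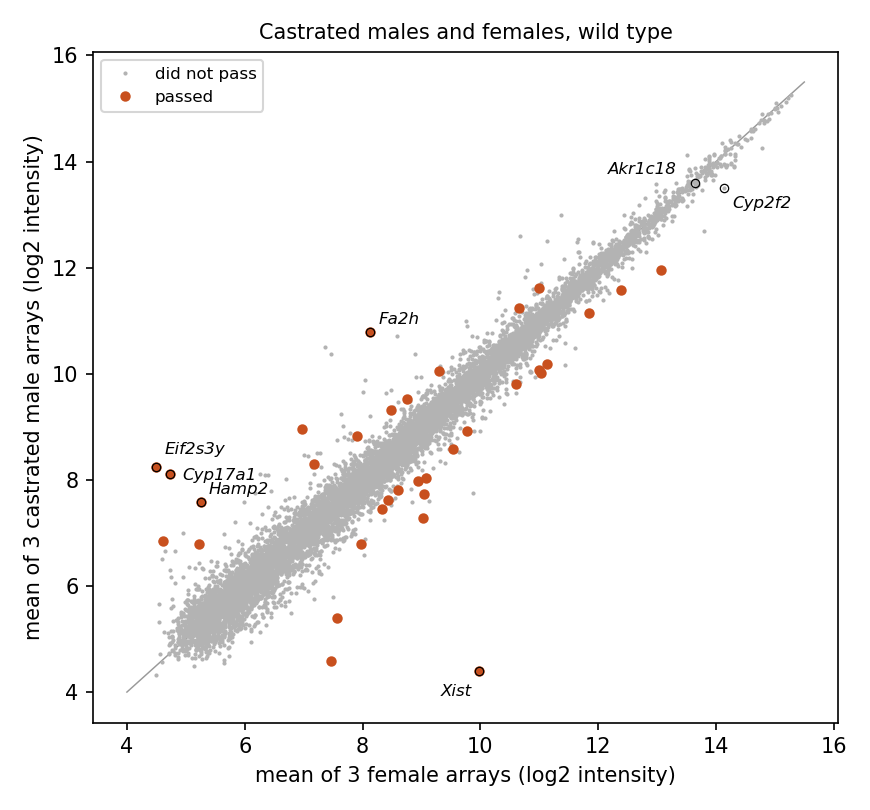
Mean log2 normalized intensity of 10375 genes over 3 wild-type castrated male arrays (vertical) against 3 wild-type female arrays (horizontal), with the 34 genes that passed in colour, equal values on the line and named genes circled. Akr1c18 and Cyp2f2 did not pass, and Fa2h, Hamp2, Cyp17a1 and Eif2s3y stand above the line and Xist below it.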

How the data were processed

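Adrenal RNA of 18 samples in 6 groups of 3 was extracted with RNeasy, its quality was read on a Bioanalyser, and biotinylated cRNA was hybridised to Illumina bead arrays, per the labels' protocols. Per the file headers, the deposited bead signals are intensity values not normalized between arrays, and each of the 45281 probes also has a deposited detection p-value. The submitters' processing notes name GenomeStudio, without a version. The intensity values that the authors normalized and deposited, by a method the sources used here do not state, served as an alternative. No slide or scan is named, so neither entered a fit. The highest correlation between any 2 arrays was 0.990, and none were identical.

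In R 4.3.3, the neqc step of limma 3.58.1 was used: background was corrected using negative controls inferred from detection p-values, 16 was added, and signals were quantile-normalized and put on the log2 scale. A probe was kept where 3 or more arrays had a detection p under 0.01. Of all probes, 34885 have 1 gene symbol in the platform annotation, 18 several and 10378 none, and 34807 matched RefSeq by gene identifier, which changed 0 symbols. The brightest of a gene's kept probes was tested, and 3775 of 10375 genes had more than 1. A single limma fit of all 18 arrays (12 residual degrees of freedom, eBayes with an intensity trend, Benjamini-Hochberg adjustment over all genes) gave every contrast. With 3 arrays per group their number limits precision, and the median SE of a difference of 2 groups was 0.206. Where no array of the dim group detected a gene, "at least N-fold" sets the bright mean against the dim mean, each dim array counted at no less than its lowest detected probe.

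The text names the 12 genes that rose most and the 12 that fell most, out of those past the threshold with no overlap between arrays, up to 6 members of each described list by p, a fixed set of 27 genes, and the 6 smallest p-values of the genotype difference. Other members of a list are named with a value where a count of the list turns on them, and genes that passed against females were picked after their values were seen. Of the 137 genes this names, 1 is left out. Members, lists and rules were chosen with earlier results of these data known. Lists are described by counts and medians, without a set test. The alternatives covered normalization, background, filters, probe choice, array weights, trend, block, samples fitted and each array left out. An array left out of a fit stayed in the normalization and the detection filter. Promoter windows were searched with Python 3.11.15 and aligned with Biopython 1.88.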

Additional observations from a re-analysis of the deposited data

Results flagged for a closer look

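Probes without a single gene symbol lie outside the comparisons above. Of 2441 such probes kept by the detection filter, 118 (4.83%) passed in castrated against intact wild-type males, 70 higher and 48 lower, with differences from -2.23 to 3.92, and 438 had an unadjusted p under 0.05. Their share is below the 10.7% of named genes that passed. In the genotype difference of the castration effect 0 of these probes passed by limma, with 82 at an unadjusted p under 0.05. With 3 arrays in each group, single arrays were not tested as outliers.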

How the results depend on the processing

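For castrated against intact wild-type males, 1111 genes became 407 under median scaling and 2617 when arrays were weighted, 1463 without knockout castrated array 1, and 542 to 1048 without any 1 of the 6 arrays. In the knockout, 1818 became 2783 with array weights and 1139 with the groups compared fitted alone, and ranged from 975 to 1774 without any 1 array. The 34 genes against females became 10 with median scaling, 334 with array weights, 153 with the groups compared fitted alone, 69 without knockout castrated array 1, and 6 to 28 without any 1 array of the groups compared. The other settings kept these counts within 1.5 times. The genotype difference stayed at 0 in all. Over 136 named genes and their alternatives, 2197 of 2444 values kept direction and side of the threshold, 186 lost a call, 58 gained one and 3 turned sign: Xist, not detected in males, to 0.02 with array weights and 0.02 without castrated array 3 (-0.09 to 0.02 over the arrays left out), and Atf3 to 0.14 without intact array 2 (-2.01 to 0.14). Of 99 named genes that passed, 36 did not with median scaling. The cause was not tested. Same-numbered intact and castrated wild-type arrays deviated from their group means with correlations of 0.066, -0.193 and -0.012, so the numbers were not treated as pairs. With the replicate number as a block, 1068 genes passed in wild type, 1755 in the knockout, 34 against females and 0 in the genotype difference. Signals near background limit genes such as Hamp2 to lower bounds.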
